A study of Mus musculus with 32 samples.

Results

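The placental gene clusters of the mouse are families of neighbouring, duplicated genes that the placenta or the decidua uses. They were chosen here by gene name: RefSeq protein-coding genes on the autosomes of GRCm38 whose symbol starts with Prl and a digit, with Psg or with Ceacam, and the 8 cathepsin genes Cts3, Cts6, Cts7, Cts8, Ctsj, Ctsm, Ctsq and Ctsr. The rule gave 61 of 20661 genes: 25 Prl, 13 Psg, 15 Ceacam and 8 Cts genes. The Prl and Cts members lie on chromosome 13 and the Psg and Ceacam members on chromosome 7. The name describes where most of these genes are used in the animal. The files hold no expression value, so neither placental use nor silence in germ cells was measured.

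The measurement was trimethylation of lysine 9 on histone H3 (H3K9me3), a mark of compact, silenced chromatin, mapped by ChIP-seq in male germ cells from testes of mice carrying the Mvh-Venus reporter transgene, which labels germ cells. Each of 4 ages, E13.5 and E16.5 before birth (days of embryonic life) and P0 and P3 after it (days since birth), had animals heterozygous for Morc1 (Morc1 (+/-), here het) and homozygous knockouts (Morc1 (-/-), here KO). All groups carried the reporter, and the het animals, with 1 intact Morc1 allele, served as the comparison; no group without a Morc1 mutation was used here. The labels list 2 H3K9me3 samples per group, and the authors deposited 1 peak list per group, 8 lists in all. Whether the samples came from single or pooled animals, and how their reads were joined into a list, is not given in the sources used here. There was therefore no replicate error for any value, no test was made, and every comparison describes lists whose read depth is unknown. The lists held 52628 to 93523 peaks with median lengths of 1853 to 2551 bp. Peak lists cannot show whether Morc1 was absent from the KO cells, nor whether germ cell markers were expressed.

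Prl genes encode relatives of prolactin. In rodents the family has expanded into a long cluster whose members, such as the placental lactogens and proliferins, are secreted by trophoblast giant cells, spongiotrophoblast or decidua. Psg genes encode secreted pregnancy-specific glycoproteins, and Ceacam genes encode related adhesion proteins of the immunoglobulin superfamily, some of them made by the placenta and others by epithelia. The 8 Cts genes are rodent-specific copies of cathepsin L, a lysosomal protease. H3K9me3 commonly covers duplicated gene clusters and transposons in cells that do not use them, and Morc1 is a nuclear ATPase that acts in male germ cells on transposon silencing.

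For each gene, the base pairs of the gene body and 5 kb on each side (the window) that lay inside a peak are its called length. Where 4 values are given for a genotype, they follow the order of the stages from E13.5 to P3. Of the merged windows of the 61 members, peaks covered 36.1, 44.1, 40.6 and 33.9% in het and 39.5, 43.2, 42.9 and 37.7% in KO. Over all 20661 genes the same shares were 3.59, 6.07, 6.56 and 6.86% in het and 4.26, 5.57, 7.65 and 8.06% in KO. In every list the called share of the merged member windows was thus several times that of the merged windows of all genes. Merged shares weigh long genes more, and the members were shorter, with a median gene length of 8.60 kb against 17.5 kb. The part of gene length in the shares was not tested. A member with any called base pair was found in 41 to 49 of 61 cases per list; among all genes the share with any call was 39.8, 44.3, 48.1 and 50.7% in het and 44.6, 43.2, 53.3 and 53.2% in KO. Of the members, 39 of 61 had a call in every list, against 27% of all genes, and 8 had no call in any list, against 29.8% of all genes. At least 50% of the window was called in all 8 lists in 19 of 61 members, against 1.37% of all genes. Per list that count was 20 (P3 het) to 29 (E16.5 KO and P0 KO), against 2.04, 3.16, 2.89 and 2.29% of all genes in het and 2.34, 3.02, 3.13 and 2.79% in KO.

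**Figure D1:**
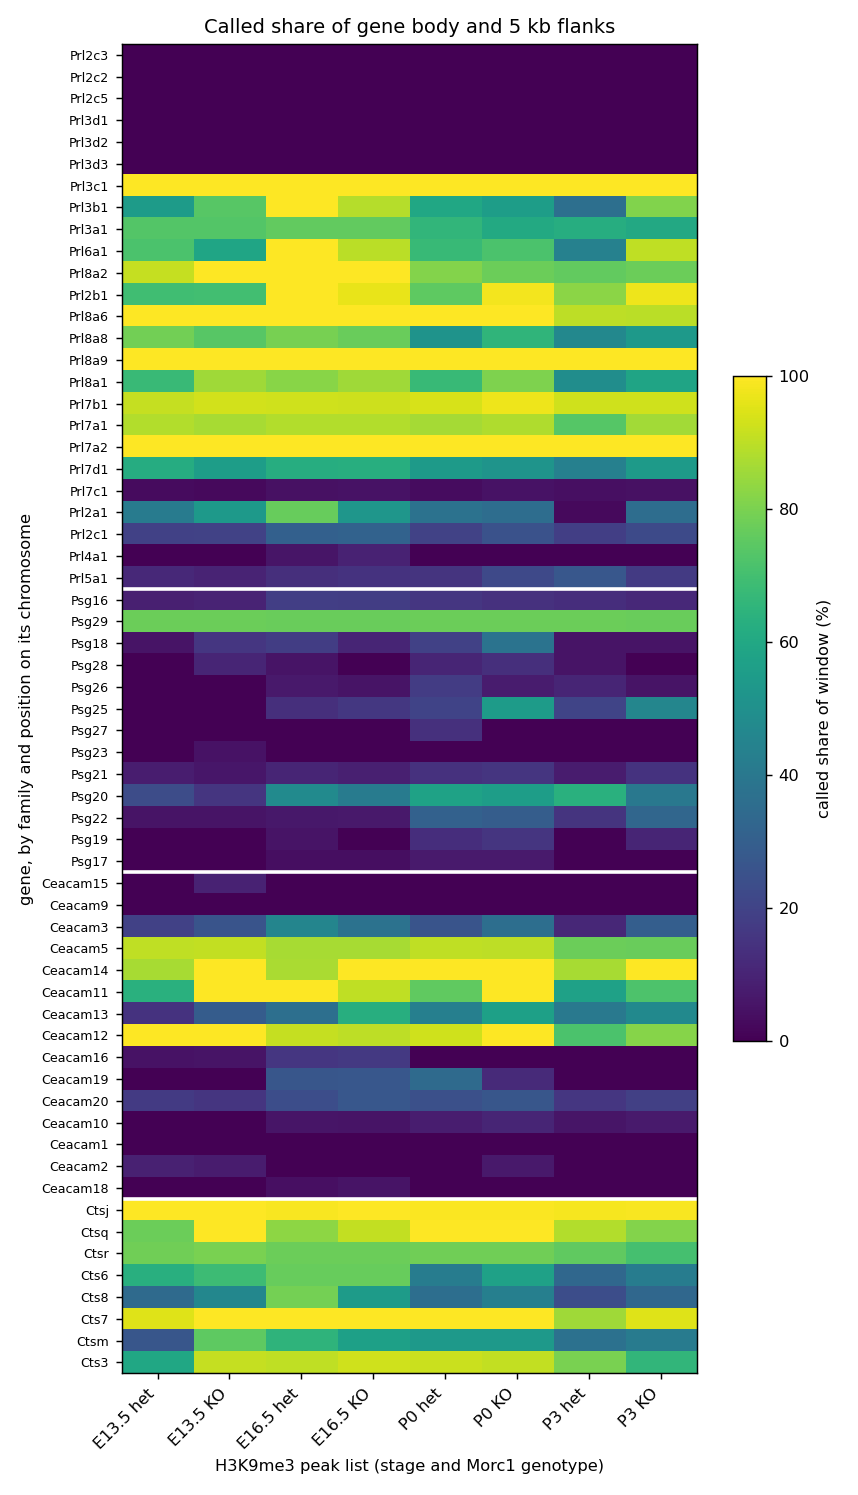
Share of each member's window (gene body and 5 kb on each side, in percent, colour scale) that lay inside H3K9me3 peaks, for 61 genes (rows, by family and chromosome position) and 8 peak lists (columns). The Cts genes and the Prl genes from Prl3c1 to Prl7d1 are covered in every list, 6 Prl genes above them are at 0, and most Psg genes are low.

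The families differed in level. The merged windows of the 8 Cts genes were called over 65.9, 83.6, 73.6 and 63.7% in het and 81.5, 80.4, 76.6 and 64.9% in KO, those of the 25 Prl genes over 49.4, 56.7, 47.5 and 42.5% in het and 50.7, 55.1, 49.6 and 49.0% in KO, in stage order. The 15 Ceacam windows were called over 31.3, 37.3, 35.8 and 27.0% in het and 34.7, 38.6, 38.2 and 30.7% in KO, and the 13 Psg windows over 10.3, 17.5, 22.5 and 17.2% in het and 11.505, 15.8, 24.5 and 18.5% in KO. In each list the order was Cts, Prl, Ceacam and Psg. Peaks over members were also long: 27.4% (P3 het) to 47.6% (E13.5 KO) of the peaks that touched a member window were at least 10 kb, against 4.35 to 6.45% of all peaks. A long peak is more likely than a short one to touch any window, so part of this excess was fixed in advance. Peaks that touched the windows of all genes were not counted, and the size of that part is unknown. Other clustered families, measured in the same way, are given for scale: the merged windows of 354 vomeronasal receptor genes were called over 21.3 to 30.3%, and those of 71 defensin genes over 9.82 to 16.53%. At least 50% of the window was called in all 8 lists in 50 of the 354 vomeronasal receptor genes (14.1%) and 3 of the 71 defensin genes (4.23%). Differences between families were not tested.

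**Figure D2:**
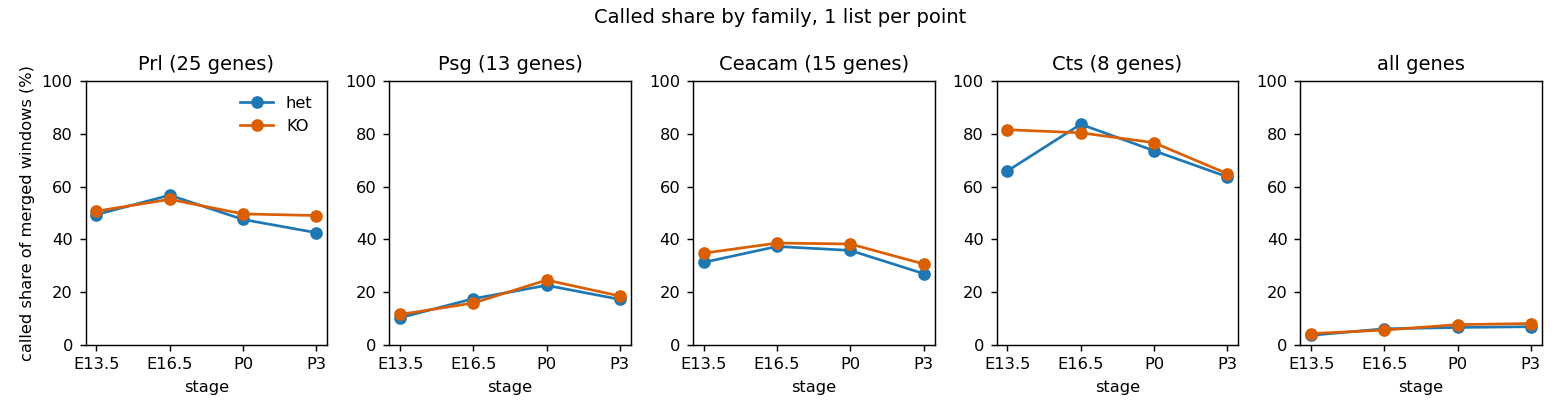
Called share of the merged windows (percent, vertical axis) at the 4 stages (horizontal axis) in het (blue) and KO (orange), for each family and for all genes; each point is 1 peak list. The Cts and Prl shares are highest at E16.5 in het and lowest at P3 in both genotypes, while the share over all genes is higher at P3 than at E13.5.

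Promoter sequences from RefSeq (build GRCm38.p6, 250 bases before to 50 after the start site) were found for 52 of 61 members. At least 1 base pair of the promoter was called in 16, 25, 20 and 19 of 52 members in het and in 19, 23, 22 and 20 in KO in stage order. Over 16456 genes the shares were 4.53, 5.03, 5.13 and 4.47% in het and 5.98, 4.76, 5.64 and 5.27% in KO. In all 8 lists the promoter was called in 15 of 52 members, against 1.97% of all genes, and in 22 of 52 it was called in none, against 88.7% of all genes. The 9 members without an entry were Prl2c1, Prl2c2, Prl7b1, Prl8a2, Psg16, Psg19, Psg22, Ceacam14 and Ceacam16. The member promoters were poor in CpG, with a median of 2 CpG in 300 bases (range 0 to 5), against a median of 14 over all promoters. Their median GC content was 45.2%, against 56.7%.

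To show both sides of a border in the Prl cluster, the promoters of Prl3d1, called in no list, and of the nearby Prl3c1, called in all 8, are printed first. Prl7a2, Cts7 and Ceacam5, also called in all 8, stand for the other heavily covered stretches. In GRCm38.p6, the printed stretches are Prl3d1 at chr13:27093939-27094238 on the plus strand, Prl3c1 at chr13:27196410-27196709 on the plus strand, Prl7a2 at chr13:27667987-27668286 on the minus strand, Cts7 at chr13:61358147-61358446 on the minus strand and Ceacam5 at chr7:17713002-17713301 on the plus strand. Sequences run 5′ to 3′ on the strand of the gene, and capitals mark matches to 3 motifs searched on both strands: TGANTCA (which takes in the site of the factor AP-1), AGATAA (a site of GATA factors) and TATAAA (the TATA box).
Prl3d1: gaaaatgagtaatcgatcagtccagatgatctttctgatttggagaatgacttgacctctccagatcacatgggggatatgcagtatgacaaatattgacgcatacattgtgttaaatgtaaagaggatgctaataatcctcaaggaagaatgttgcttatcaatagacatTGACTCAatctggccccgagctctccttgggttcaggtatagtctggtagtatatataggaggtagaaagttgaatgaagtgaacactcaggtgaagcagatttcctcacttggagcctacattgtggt
Prl3c1: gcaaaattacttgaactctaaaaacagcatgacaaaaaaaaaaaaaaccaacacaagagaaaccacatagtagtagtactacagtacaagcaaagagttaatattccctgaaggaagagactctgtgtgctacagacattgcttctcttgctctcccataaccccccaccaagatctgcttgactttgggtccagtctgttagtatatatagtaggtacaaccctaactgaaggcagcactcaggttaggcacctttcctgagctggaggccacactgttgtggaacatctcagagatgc
Prl7a2: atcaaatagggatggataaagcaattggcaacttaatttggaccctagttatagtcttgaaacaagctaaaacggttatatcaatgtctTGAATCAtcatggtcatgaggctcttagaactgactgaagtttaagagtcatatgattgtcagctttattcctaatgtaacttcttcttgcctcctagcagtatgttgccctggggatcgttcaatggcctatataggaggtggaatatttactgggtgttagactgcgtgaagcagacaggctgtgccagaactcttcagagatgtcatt
Cts7: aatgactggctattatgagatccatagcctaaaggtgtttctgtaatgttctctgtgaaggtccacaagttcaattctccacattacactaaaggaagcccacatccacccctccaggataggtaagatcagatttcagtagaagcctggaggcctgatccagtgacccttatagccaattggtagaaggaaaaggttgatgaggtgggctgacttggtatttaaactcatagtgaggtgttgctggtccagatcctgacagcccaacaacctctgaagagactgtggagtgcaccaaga
Ceacam5: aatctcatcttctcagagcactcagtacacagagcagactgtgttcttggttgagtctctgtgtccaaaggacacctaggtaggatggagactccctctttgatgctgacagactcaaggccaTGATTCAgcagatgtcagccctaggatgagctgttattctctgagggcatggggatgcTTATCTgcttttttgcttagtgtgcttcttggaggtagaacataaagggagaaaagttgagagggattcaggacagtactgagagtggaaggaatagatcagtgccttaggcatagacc
A match to TGANTCA began at position -79 from the start site in Prl3d1, -161 in Prl7a2 and -127 in Ceacam5, and a match to AGATAA, on the reverse strand, at -69 in Ceacam5. Prl3c1 and Cts7 held none of the 3 motifs. Over the members, TGANTCA was found in 13 of 52 promoters (25%, against 7.12% of all promoters), AGATAA in 17 (32.7%, against 9.85%) and TATAAA in 11 (21.2%, against 13.54%). Of the 21 Prl promoters, 9 held TGANTCA and 9 held AGATAA, while none of the 8 Cts promoters held either. TGANTCA was in 1 and AGATAA in 7 of the 13 Ceacam promoters, and in 3 and 1 of the 10 Psg promoters. Member promoters were lower in GC than all promoters, and several were near copies of each other. The part of either in these shares was not tested.

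The Prl genes are described in 4 stretches along chromosome 13. Only the first lies apart by position. The borders between the later stretches were placed where the called share changed. That these stretches differ in cover therefore follows from the choice of borders and is not a separate result. The first is a group of 3 proliferin genes, Prl2c3 (chr13:12790816-12800093), Prl2c2 (chr13:12996120-13005393) and Prl2c5 (chr13:13182703-13191930). Proliferins are growth factors of trophoblast giant cells that promote vessel growth. No list had a called base pair in any of these 3 windows. Prl2c3 and Prl2c2 lay in a stretch of 543.5 kb without a peak in any list (chr13:12539087-13082560), and Prl2c5 in one of 109.6 kb. The second stretch holds the placental lactogen I genes Prl3d1 (chr13:27094189-27100260), Prl3d2 (chr13:27121695-27127555) and Prl3d3 (chr13:27156794-27162593), whose products act through the prolactin receptor in early pregnancy. Their windows were also at 0 in all 8 lists. Prl3d1 and Prl3d2 lay in an uncalled stretch of 61.5 kb (chr13:27071890-27133431). It ended at a peak of at least 1 list between Prl3d2 and Prl3d3.

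Genes of both trios are close copies. The Prl2c3 and Prl2c5 promoters were 95.3% identical, and those of Prl3d2 and Prl3d3 97.0%, with 87.4 and 85.4% identity of Prl3d1 to Prl3d2 and Prl3d3. Of the 8 members whose promoter was at least 95% identical to that of another member, 4 had no call in any list, and their mean called share over the lists was at most 14.7% (Psg18). Of the 13 members with 80 to under 95% identity, 2 had no call and the median share was 41.4%. Of the 31 members below 80%, 1 had no call and the median share was 65.8%. Reads that map equally well to several copies are often dropped, and how they were handled here is not given in the sources used here. The part of copy identity in the uncalled windows was not tested. The promoter of Prl7d1, which encodes the proliferin-related protein, an inhibitor of vessel growth, was 94.4% identical to that of Prl2c3, and the Prl7d1 promoter was likewise called in no list. Its window as a whole was called over 11.0, 11.1, 9.64 and 7.76 kb in het and 9.87, 11.2, 9.21 and 9.68 kb in KO, out of a window of 17.7 kb in stage order.

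The third stretch begins at nearly the same place in every list. Between 21.9 and 23.1 kb after the end of Prl3d3, a peak began in every list that spanned the whole window of Prl3c1 (chr13:27196660-27203749), a gene of a prolactin-like protein. Its starts lay within 1.181 kb of each other over the 8 lists (27184478 to 27185659) and its ends within 0.496 kb (27209126 to 27209622). The whole window was called in all 8 lists in Prl3c1 and in Prl7a2 (chr13:27658584-27668052). These are 3.28% of the members, against 0.281% of all genes and 2.82% of the vomeronasal receptor genes (10 of 354). From Prl3c1 to Prl7d1, all 14 members had a call in every list, with mean called shares of 55.9 to 100%. The gene of pituitary prolactin itself, Prl (chr13:27057570-27065204), lies on the other side of the lactogen I genes. It is no member, and its called length was 0, 0.768, 1.40 and 0 kb in het and 0, 0.674, 1.63 and 0.802 kb in KO, out of a window of 17.6 kb.

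**Figure D3:**
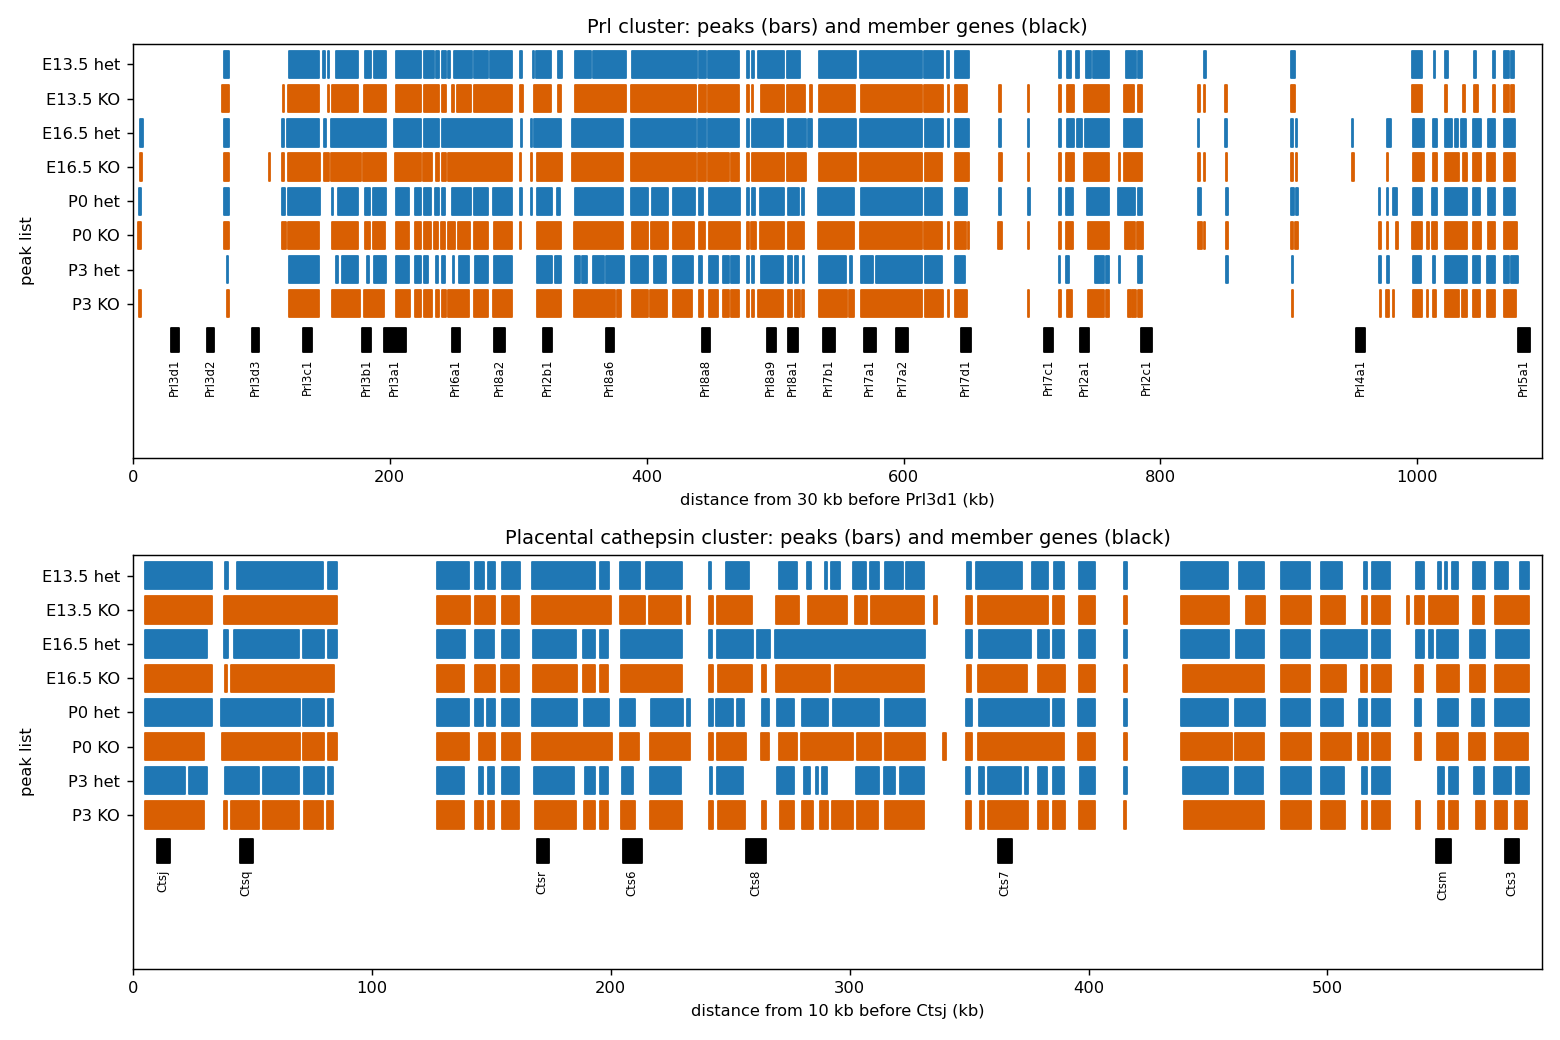
Peaks of the 8 lists (bars, het blue, KO orange) and member genes (black) along the Prl cluster (upper panel) and the placental cathepsin cluster (lower panel); the horizontal axis is the distance in kb from 30 kb before Prl3d1 or 10 kb before Ctsj. No peak lies over Prl3d1, Prl3d2 or Prl3d3, 1 long peak covers Prl3c1 in every list, and peaks thin out after Prl7d1.

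Within the third stretch, the covered genes varied with stage. Prl8a9 and Prl8a6, both of prolactin-like proteins, stayed near full cover. Prl8a9 was called over its whole window of 16.6 kb in 7 lists and over 16.589 kb in P3 het, and Prl8a6 over its whole window of 16.0 kb before P3 and over 14.4 kb in het and 14.3 kb in KO then. Prl8a2 (chr13:27345673-27354216), which encodes the decidual prolactin-related protein, was called over 16.9, 18.5, 15.1 and 14.1 kb in het and 18.5, 18.5, 14.4 and 14.4 kb in KO, out of a window of 18.5 kb. Its gene body was covered whole in every list, so only the flanks varied. Prl3b1 (chr13:27242430-27249683), which encodes placental lactogen II, the lactogen of later pregnancy, varied more. Its called length was 9.46, 17.3, 10.3 and 6.27 kb in het and 12.8, 15.4, 9.57 and 14.0 kb in KO, out of a window of 17.3 kb. It was highest at E16.5 in both genotypes and lowest at P3 in het and at P0 in KO.

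The fourth stretch, from Prl7c1 to Prl5a1, was lighter, with mean called shares of 1.93 to 42.1% over 5 members. In Prl7c1 no base pair of the gene body was called in any list. Prl4a1 had calls in the E16.5 lists only, of 1.00 kb in het and 1.67 kb in KO. Prl2a1 (chr13:27801655-27808716) had the widest range of the family in kb, with 7.12, 13.1, 6.45 and 0.466 kb in het and 9.19, 8.93, 6.11 and 6.12 kb in KO, out of a window of 17.1 kb in stage order. Its P3 het value stands apart from the other 7 lists, which ranged from 6.11 to 13.1 kb.

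In the whole span from Prl3d1 to Prl5a1, which holds 22 members and no other protein-coding gene of the autosomal set, 36.7 to 51.7% of the sequence was called. Member gene bodies were called over 48.9 to 65.2%, their flanks over 48.6 to 65.0%, and the space between windows over 29.7 to 43.9%. The mark was thus not limited to the genes. The longest peak of this span was 35.2 kb (P3 het) to 54.8 kb (E16.5 het).

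The placental cathepsin genes lay under dense cover. In the span from Ctsj to Cts3 (chr13:61000179-61570170), 51.1 to 65.1% of the sequence was called, with 65.2 to 96.0% of member bodies and 47.5 to 61.8% of the space between windows. All 8 genes had calls in every list. Ctsj (chr13:61000179-61005925) was called over 15.7, 15.6, 15.6 and 15.5 kb in het and 15.7, 15.7, 15.6 and 15.6 kb in KO, out of a window of 15.7 kb in stage order, so the lists ranged from 15.5 to 15.7 kb. Cts7 (chr13:61352461-61358196) was called over 15.0, 15.7, 15.7 and 13.51 kb in het and 15.7, 15.7, 15.7 and 15.0 kb in KO, out of a window of 15.7 kb. The bodies of Ctsj, Ctsq, Ctsr and Cts7 were covered whole in all 8 lists. Ctsq was called over 12.1, 12.9, 15.6 and 13.8 kb in het and 15.6, 14.1, 15.6 and 12.7 kb in KO, out of a window of 15.6 kb. The lowest mean shares in this family were those of Cts8 (43.98%) and Ctsm (51.4%).

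Cts8 (chr13:61246747-61255348) was called over 6.43, 14.7, 6.74 and 4.42 kb in het and 8.63, 10.2, 8.06 and 6.20 kb in KO, out of a window of 18.6 kb in stage order. Its E16.5 values are the highest of each genotype and its P3 values the lowest. Ctsm (chr13:61535739-61541883) was called over 4.32, 10.5, 8.69 and 6.05 kb in het and 12.1, 9.17, 8.74 and 6.72 kb in KO, out of a window of 16.1 kb. At E13.5 a peak of 12.1 kb spanned the gene in KO (chr13:61532689-61544818), where het had 3 peaks of 1.00, 1.00 and 2.32 kb. The promoters of Ctsm and Cts3 were 89.8% identical.

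Of 14 other cathepsin genes (Ctsa to Ctsz, some used in many tissues and some in few), 2 had a call in every list, Ctse with a mean share of 14.1% and Ctsg with 32.0%. No base pair was called in any list in 3 of them, and none reached 50% of the window in any list. Their merged windows were called over 1.69% (E13.5 KO) to 9.27% (P0 KO). Ctsl, which encodes cathepsin L and lies on the same chromosome (chr13:64361890-64370772), had no call in any list. Of the 2 genes for trophoblast-specific protein that adjoin the cathepsin cluster, Tpbpa (chr13:60938492-60941936) was called over 3.33, 6.76, 8.88 and 7.96 kb in het and 4.69, 8.75, 10.8 and 8.47 kb in KO, out of a window of 13.4 kb. Tpbpb, its neighbour, was called over 0, 1.67, 0 and 0 kb in het and 1.08, 2.06, 0 and 0 kb in KO, out of a window of 13.6 kb.

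On chromosome 7, the Psg and Ceacam genes of the span from Ceacam15 to Psg17 (chr7:16671331-18821591) were mixed with 18 other protein-coding genes, and 24.8 to 32.9% of the span was called. Psg29 (chr7:17203477-17215756) was called over 17.2, 17.2, 17.3 and 17.3 kb in het and 17.3, 17.2, 17.3 and 17.2 kb in KO, out of a window of 22.3 kb in stage order. Its peak began within 0.684 kb and ended within 0.159 kb of the same place in all 8 lists. Between Psg29 and Ceacam5 lay uncalled stretches of 109.6 and 234.8 kb with no member inside. A covered stretch further along held Ceacam5 (chr7:17713216-17761121), Ceacam14, Ceacam11, Ceacam13 and Ceacam12. Ceacam5 was called over 52.3, 50.2, 52.4 and 44.9 kb in het and 52.6, 50.4, 52.1 and 44.7 kb in KO, out of a window of 57.9 kb, and Ceacam14 and Ceacam12 had mean called shares of 95.1% and 91.0%.

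**Figure D4:**
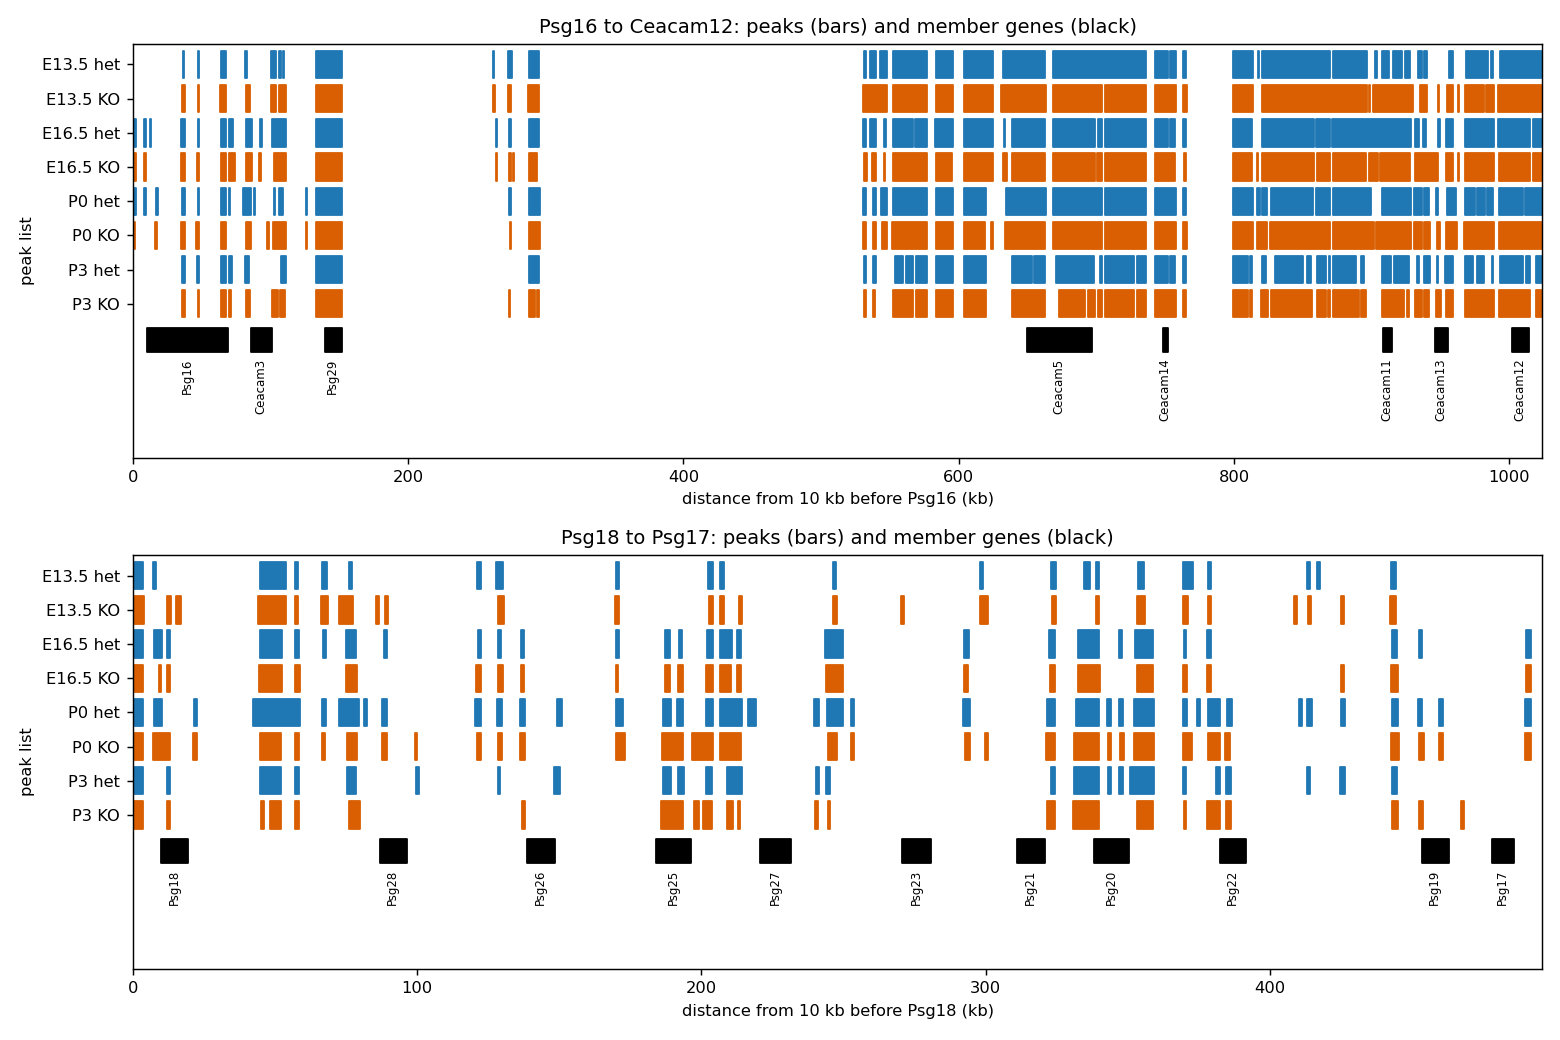
Peaks of the 8 lists (bars, het blue, KO orange) and member genes (black) on chromosome 7, from Psg16 to Ceacam12 (upper panel) and from Psg18 to Psg17 (lower panel); the horizontal axis is the distance in kb from 10 kb before the first gene. Peaks are dense around Ceacam5 to Ceacam12 and short and scattered over the 11 Psg genes of the lower panel.

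The 11 Psg genes from Psg18 to Psg17 had short, scattered peaks, with mean called shares of 0.621 to 43.1%. Psg21 (chr7:18646654-18656725) and Psg23 (chr7:18606343-18616501), whose promoters were 96.4% identical, are among the more abundant Psg genes of the placenta. Psg21 was called over 1.57, 2.09, 2.87 and 1.56 kb in het and 1.25, 1.80, 3.11 and 2.95 kb in KO, out of a window of 20.1 kb in stage order, all of it outside the gene body. Psg23 had 1.00 kb in E13.5 KO and no call in the other 7 lists, and Psg27 had 2.89 kb in P0 het and none elsewhere. Psg16 (chr7:17074013-17133450), a long gene that is also used in the brain, was called over 6.07, 12.9, 10.9 and 9.20 kb in het and 6.92, 12.7, 9.90 and 7.995 kb in KO, out of a window of 69.4 kb. Psg20 (chr7:18673985-18686277) carried the most of the 11, with 5.18, 10.6, 12.8 and 14.2 kb in het and 3.44, 9.23, 12.5 and 8.90 kb in KO, out of a window of 22.3 kb. Its het values were higher at each later stage, while KO was highest at P0.

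The 7 Ceacam genes outside that span had mean called shares of 0 to 21.1%, against 0 to 95.1% for the 8 inside, of which Ceacam9 had no call in any list and Ceacam15 a call of 1.36 kb in E13.5 KO only. Ceacam1 (chr7:25461702-25477647), an adhesion receptor of epithelia and immune cells, had no call in any list. Ceacam16, which encodes a protein of the tectorial membrane of the inner ear, was called in the embryo and not after birth, with 1.44, 4.62, 0 and 0 kb in het and 1.54, 4.92, 0 and 0 kb in KO in stage order. Ceacam20, of intestinal epithelium, had calls in all 8 lists, from 5.48 to 9.68 kb of 35.8 kb.

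Of 18 trophoblast genes outside the rule (transcription factors such as Gcm1, Ascl2 and Cdx2, syncytins, imprinted placental genes and the prolactin receptor gene Prlr), 6 had a call in every list and 2, Gcm1 and Synb, in none. None but Tpbpa reached 50% of the window in any list. Prlr, which encodes the receptor of prolactin and the lactogens, was called over 4.09, 10.2, 19.5 and 17.3 kb in het and 3.61, 10.1, 21.9 and 22.1 kb in KO, out of a window of 182 kb in stage order. Its called length was at most 12.1% of the window. The imprinted Peg10 and Rtl1, which derive from retrotransposons, were called in every list, with mean shares of 26.7% and 15.0%. Mean shares were 4.22%, 2.11% and 1.195% for Ascl2, Elf5 and Tfap2c, which encode transcription factors of the trophoblast. Cdx2, another such factor, was higher, with a call in all 8 lists and a mean share of 17.9%.

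Stages were then compared within each genotype. A member was counted as longer in 1 list than in another when its called length was at least 1.5 times and at least 1 kb greater. Genes with no call in either list cannot pass this rule, so the share among genes with a call in either list follows each share of all genes. Members whose window was already called too far to become longer by the rule numbered 17 to 26 of 61 by comparison, against 1.36 to 2.304% of all genes, and this limits every count below. Consecutive steps share a list and are given side by side. From E13.5 to E16.5, 20 of 61 members were longer at E16.5 in het (32.8%, against 24.4% of all genes). Of the 50 members with a call in either list this was 40%, against 47.95% of such genes, so the order turned with the denominator. These 50 include 20 members without room to become longer by the rule, against 324 of 10523 such genes. Neither share is therefore read as a difference. Ceacam2 alone was longer at E13.5 in het (1.64%, against 8.35%, and 2% against 16.4% of those with a call). In KO, 12 were longer at E16.5 (19.7%, against 18.4%, and 23.5% against 34.8% of those with a call) and 5 at E13.5 (8.20%, against 13.3%, and 9.80% against 25.2%). The 20 in het were 4 Prl, 7 Psg, 6 Ceacam and 3 Cts genes, among them Cts8, Prl3b1 and Psg16. The 12 in KO included no Cts gene. The merged Cts windows were called over 81.5% in E13.5 KO. Every Cts window but that of Cts8 was called there over 68.7% (Cts6) to 100% (Ctsq and Cts7). Windows called that far cannot become 1.5 times longer. Cts8 had 8.63 of 18.6 kb in E13.5 KO and 10.2 kb at E16.5, which did not meet the size rule. The absence of Cts genes is therefore not read as a result.

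From E16.5 to P0, the members longer at P0 were mostly Psg genes, but the families differed in room to become longer. In the E16.5 lists, at least 50% of the window was called in 15 of 25 Prl and 8 of 8 Cts genes. The same held for 4 (het) or 5 (KO) of 15 Ceacam genes and for 1 of 13 Psg genes. The family make-up of the members longer at P0 is therefore not read as a difference between families. In het, 5 members were longer at P0 (8.20%, against 16.1% of all genes, and 10% against 29.7% of those with a call), all of them Psg genes: Psg19, Psg22, Psg26, Psg27 and Psg28. Another 10 were longer at E16.5 (16.4%, against 10.8%), a share that was level among those with a call, at 20% against 19.8%, and these were 5 Prl, 3 Ceacam and 2 Cts genes. In KO, 7 were longer at P0 (11.48%, against 26.1%, and 14% against 45.8% of those with a call), 6 of them Psg genes, and 5 were longer at E16.5 (8.20%, against 5.86%, and 10% against 10.3%). Psg22 had 1.00, 1.26, 6.03 and 2.92 kb in het and 1.00, 1.29, 5.75 and 6.42 kb in KO, out of a window of 19.4 kb in stage order, with its step at P0 in both genotypes. Cts6 fell from 14.0 to 7.64 kb in het, and in KO the values were 14.0 and 10.4 kb, which did not meet the size rule. With 10 kb on each side, the 10 het members longer at E16.5 became 5 and the 7 KO members longer at P0 became 11.

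From P0 to P3, more members were shorter than longer at P3, while among all genes more were longer than shorter. A fall at P3 was not particular to the members. The merged windows of vomeronasal genes were called over 29.1% at P0 and 21.3% at P3 in het, and 29.4 and 23.6% in KO. Those of the defensin genes were called over 14.6 and 11.9% in het, and 16.53 and 14.9% in KO. Whole lists covered 324.96 Mb at P0 and 287.20 Mb at P3 in het, and 339.53 and 314.03 Mb in KO. The part of this lower cover in the member counts was not tested. In het, 15 members were longer at P0 (24.6%, against 9.73% of all genes, and 31.9% against 17.2% of those with a call) and 1 at P3, Prl5a1 (1.64%, against 16.7%, and 2.13% against 29.5%). In KO, 5 were longer at P0 (8.20%, against 10.6%, and 10.6% against 17.8% of those with a call) and none at P3 (0 of 61, against 14.7%, and 24.6% of those with a call). Under a threshold of any difference, 39 members were longer at P0 and 5 at P3 in het, and 37 and 6 in KO. The 15 in het were 8 Psg, 3 Prl, 3 Ceacam and 1 Cts genes, and included Prl2a1, Prl3b1, Prl6a1, Ceacam19 and Cts8. In gene bodies alone, the KO count of members longer at P0 was 11. Whether the steps differ between het and KO was not tested.

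Het and KO were compared last. With 1 list per group and unknown read depth, a difference between the lists cannot be assigned to the loss of Morc1. On merged windows the KO called length over that of het stood at ratios of 1.09, 0.979, 1.06 and 1.11 in stage order, against 1.19, 0.919, 1.17 and 1.175 over all genes. At E13.5, 8 members were longer in KO (13.1%, against 13.3% of all genes) and 1 in het (1.64%, against 3.81%). At E16.5, 1 was longer in KO (1.64%, against 2.78%) and 3 in het (4.92%, against 5.18%). At P0, 3 were longer in KO (4.92%, against 16.4%) and 3 in het (4.92%, against 4.8%). At P3, 8 were longer in KO (13.1%, against 14.3%) and 4 in het (6.56%, against 5.97%). Of the members with a call in either list, 18.2, 2.04, 6.25 and 18.2% were longer in KO in stage order, against 28.0, 5.99, 29.3 and 25.04% of such genes. In het the shares were 2.27, 6.12, 6.25 and 9.09%, against 8.02, 11.2, 8.54 and 10.48%. The limit that full windows set applies here too. At E13.5 and at P0 alike, 20 of 61 members had too much of the window called in het to be longer in KO. The part of this limit in the low P0 count was not tested, and that count is not read as a difference.

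**Figure D5:**
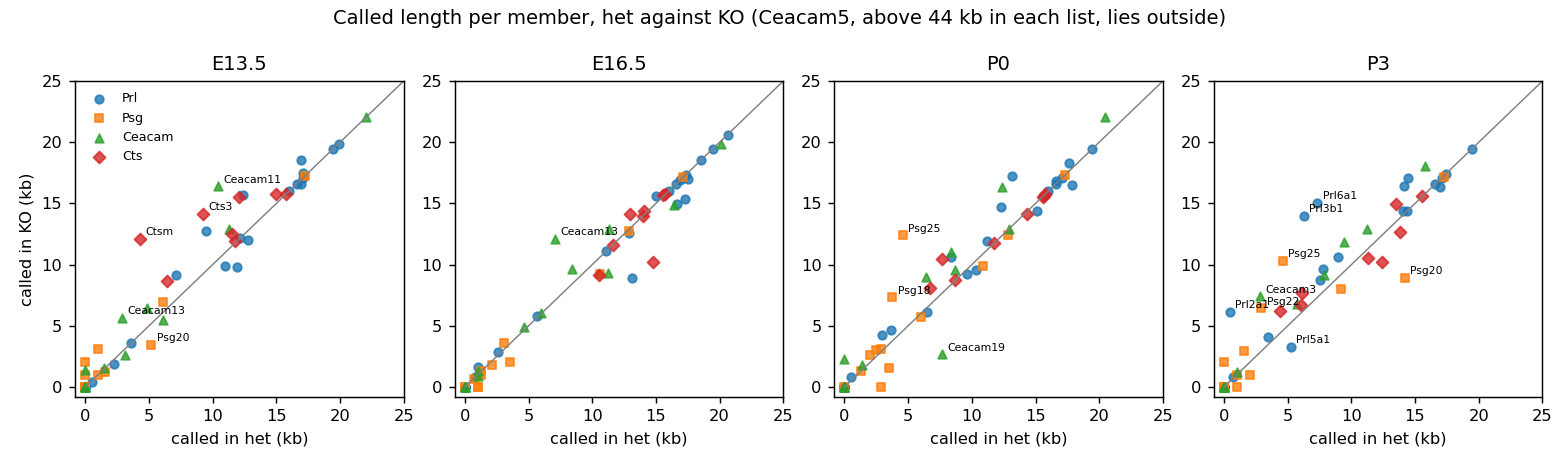
Called length per member (kb) in het (horizontal axis) and KO (vertical axis) at each stage; each point is 1 gene, marked by family, the line marks equal length, and genes that passed the size rule with at least 4 kb are named. Most members lie near the line at E16.5, Ctsm stands above it at E13.5, and Prl3b1, Prl6a1 and Prl2a1 stand above it at P3.

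At no stage was the share of all members that were longer in KO above that of all genes, so the genes below are described singly. The members that passed the size rule differed from stage to stage. At E13.5 those longer in KO were Ctsm, Cts3, Ceacam11, Ceacam13, Ceacam15, Psg18, Psg23 and Psg28. Cts3 had 9.26 kb there in het against 14.2 kb in KO, and Ceacam11 had 10.4 and 16.4 kb. The Cts windows together were called over 65.9% in het and 81.5% in KO at E13.5, a ratio of 1.24, against 1.19 over all genes. Of the 8 Cts genes, 2 passed the size rule there, Ctsm and Cts3. At E16.5 the Cts windows were called over 83.6% in het and 80.4% in KO. Ceacam13, a placental member, was the only one longer in KO at both embryonic stages. Neither of its calls, nor those of Cts3 and Ceacam11, held at 2 times, and at E16.5 its difference in the gene body was 0.027 kb. Its called length was 2.85, 7.10, 8.38 and 7.85 kb in het and 5.63, 12.1, 11.0 and 9.14 kb in KO, out of a window of 19.3 kb in stage order.

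After birth, Psg25 (chr7:18519702-18532266) was longer in KO at both P0 and P3. It had 0, 3.05, 4.56 and 4.59 kb in het and 0, 3.62, 12.4 and 10.3 kb in KO, out of a window of 22.6 kb in stage order. In het, peaks of 2.67 and 1.89 kb at P0 and of 2.51 and 2.08 kb at P3 lay inside the gene. In KO 1 peak joined both sites at each stage, of 7.44 kb at P0 and 7.68 kb at P3, and further KO peaks lay beside the gene, of 7.61 kb at P0 and of 1.84 and 3.14 kb at P3. Psg26 was the member longer in het at both stages, which had 3.503 kb against 1.52 kb at P0 and 2.03 kb against 1.00 kb at P3. Its calls rest on 1 or 2 peaks of at most 2.03 kb per list. The P0 difference was 0 with equal peak numbers, with the longer 50% of each list and in the gene body, and the P3 difference was 0 with the longer 50% and 0.25 kb in the gene body.

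The Prl genes met the size rule at P3 only. Prl3b1 had 6.27 kb in het against 14.0 kb in KO, Prl6a1 7.32 and 15.1 kb, and Prl2a1 0.466 and 6.12 kb, while Prl5a1 was longer in het with 5.22 and 3.27 kb. The Prl5a1 call was lost with 10 kb on each side (0.361 kb), in the gene body (0.219 kb) and under both stricter size rules, and the whole peak there was longer in KO (9.25 kb, against 5.77 kb in het). The Prl3b1 call was lost with 10 kb on each side, where the difference stayed 7.69 kb in a larger total. At P0 the same genes had 10.3 and 9.57 kb, 11.2 and 11.9 kb, 6.45 and 6.11 kb, and 2.91 and 4.22 kb. Over Prl2a1, the P0 peaks were alike in length, 16.9 kb for het and 16.6 kb for KO. At P3 the KO list kept a peak of 12.6 kb that reached into the gene, and the het list had one of 6.63 kb that did not. Over Prl3b1, KO had separate peaks of 3.56 kb in the gene and 9.37 kb beside it at P0. At P3 a KO peak of 15.5 kb ran without a break from inside the gene over the sequence beside it, where het had peaks of 1.53 kb in the gene and of 9.33 kb beside it. On the merged Prl windows the P3 shares were 42.5% in het and 49.0% in KO, a ratio of 1.15, against 1.175 over all genes.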

How the data were processed

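The data were 8 deposited H3K9me3 peak lists, 1 per genotype and stage, each with the chromosome, start and end of every peak and no score. The submitters' processing notes name bcl2fastq 2.20, cutadapt 1.18, Bowtie2 2.3.4.1, deepTools 3.5.0 and HOMER 4.10, and mm10 as build, without role or order. Calling settings, the use of the 16 H3 samples as control, replicate pooling, depth and the handling of reads that map to several copies are not given in the sources used here. Each list was assigned to its group by the stage and genotype in its name.

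Genes and coordinates came from RefSeq, GRCm38.p6, the assembly that mm10 stands for. Peaks were read as BED and are printed 1-based. Overlapping peaks were merged, and called base pairs were counted in the gene body and 5 kb on each side with Python 3.11.15, numpy 2.4.6 and pandas 2.3.3. Windows of 6 members overlap another, so family totals use merged windows. Promoter identity is matches over aligned columns of a global alignment (Biopython 1.88). The counting was tested on simulated peaks of known length. The members and lists were chosen with earlier results of these data known. Genes are named by rank of mean called share (the 3 highest and 2 lowest per family), as members without a call, by a difference shared by P0 and P3 or by E13.5 and E16.5, by lists of known placental, trophoblast and cathepsin genes, or because they passed the size rule. That last group, and other genes singled out for their values, were chosen after the values were seen. Alternatives changed the window, the peaks used or the size rule.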

Additional observations from a re-analysis of the deposited data

Results flagged for a closer look

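In 3 Psg genes the genotype with the longer called length, by the rule of at least 1.5 times and 1 kb, was not the same at all stages. Each value rests on 1 list per group, and the difference between stages was not tested. For Psg18, KO minus het was 2.08 kb in the E13.5 lists, -1.53 kb in those of E16.5 and 3.56 kb in those of P0. For Psg28 it was 2.002 kb in the E13.5 lists and -1.001 kb in those of both E16.5 and P3. For Psg19 it was -1.001 kb in the E16.5 lists and 2.01 kb in those of P3. The Psg28 differences were all 0 with equal peak numbers, with the longer 50% of each list and without peaks of the shortest length. The E16.5 difference of Psg19 was 0 under the same settings, and its P3 difference was 0 with equal peak numbers and with the longer 50%, so the opposite directions of both genes were lost. For Psg18 the het excess at E16.5 was 0.045 kb in the gene body, and the E13.5 difference with the longer 50% was 0. The promoters of Psg18 and Psg28 are 96.7% identical.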

How the results depend on the processing

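The counts of members with any call, and with at least 50% of the window called, stayed within 1.5 times in every list under all alternatives tried for them. Counts by the size rule are small and moved more. With any difference above 0, members longer in KO numbered 26, 20, 27 and 29 over the stages and in het 12, 24, 13 and 12. Over the 3 steps, members longer at the later stage then numbered 39, 24 and 5 in het and 28, 21 and 6 in KO, and at the earlier stage 7, 21 and 39 in het and 17, 23 and 37 in KO. With at least 2 times, 5 were longer in KO and 0 in het at E13.5, 0 in KO at E16.5 and 2 in het at P3; in het, 5 were longer at E16.5 than P0, 0 at P3 than P0 and 9 at P0 than P3. With at least 2 kb, members longer in het numbered 0, 0 and 1 for E13.5, E16.5 and P3, 3 were longer at P0 than E16.5 in het, and in KO 2 were longer at E13.5 than E16.5 and 3 at E16.5 than P0.

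In gene bodies alone, 0 were longer in KO at E16.5 and 5 at P0, and 1 in het at P0 and 1 at P3. Between stages, 3 were then longer at P0 than E16.5 and 0 at P3 than P0 in het, and in KO 3 at E13.5 than E16.5, 1 at P3 than P0 and 11 at P0 than P3. With 10 kb on each side, 0 were longer in het for E13.5, 0 for E16.5, and 2 in KO for E16.5; between stages, 5 were longer at E16.5 than P0 and 0 at P3 than P0 in het, and in KO 11 at P0 than E16.5 and 10 at P0 than P3. The het excess of Psg28 at P3 then reversed, to -0.416 kb. With equal peak numbers, 4, 1 and 2 were longer in het at E13.5, E16.5 and P3, 3 in KO at E16.5, 2 at E13.5 than E16.5 and 3 at P3 than P0 in het, and 3 at E13.5 than E16.5 in KO. Without peaks of the shortest length, 2 were longer in het at E13.5, 3 in KO at E16.5 and 3 at E13.5 than E16.5 in KO. With the longer 50% of each list, 2 were longer in het at E13.5 and 1 at P3, and in KO 7 were longer at E16.5 than E13.5, 0 at E13.5 than E16.5 and 3 at E16.5 than P0. Of the 31 differences of single members between genotypes, 16 lost their call in gene bodies alone, 12 with the longer 50%, 11 at 2 kb, 10 at 2 times, 9 with equal peak numbers, 9 with 10 kb and 5 without the shortest peaks. The cause of these shifts was not tested.

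No paired analysis was possible because each group has 1 peak list and the lists carry no replicate numbers; for the same reason no replicate was left out. Read depth is unknown, so an uncalled window is not shown to lack the mark.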

Other observations

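Among the 18 trophoblast genes outside the rule, 8 were longer in KO than in het at E13.5 (44.4%, against 13.3% of all genes) and 1, Gata2, was longer in het. Of all genes with a call in either list, 28.0% were longer in KO, and 14 of the 18 had a call in E13.5 KO. The 8 were Cdx2, Eomes, Gata3, Hand1, Phlda2, Syna, Tead4 and Tpbpb. Phlda2 and Syna each rested on 1.001 kb in KO, the shortest peak length, and Tpbpb on 1.08 kb. The alternative settings were not run on these genes. Gata3, which encodes a transcription factor of early trophoblast, had 1.00 kb in het against 11.1 kb in the KO list at E13.5. In the 6 later lists it had at most 1.25 kb. Cdx2, a trophectoderm factor, had 1.26 and 4.36 kb at E13.5, and Hand1, a factor of giant cells, had 2.56 kb in E13.5 KO and no call in any other list. In KO, 8 of the 18 were longer at E13.5 than at E16.5, against 13.3% of all genes and 25.2% of those with a call. This count uses the same E13.5 KO list as the one above and is not separate support. At E16.5 no gene of the list met the size rule in either direction between the genotypes, and at P0 and P3 at most 1 did in either direction. The E13.5 KO list was not compared with a replicate, and the result was noticed after the values were seen.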
